A study of Homo sapiens with 72 samples.

Results

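The polyamine synthesis and antizyme genes were examined across all compounds and doses of a population RNA-seq experiment in U2OS cells, a human osteosarcoma line. They are 8 genes chosen by name, out of 60371 genes listed: the decarboxylases ODC1 and AMD1, the aminopropyl transferases SRM and SMS, the catabolic acetyltransferase SAT1, the antizymes OAZ1 and OAZ2, and the antizyme inhibitor AZIN1. The rule names the genes and uses no measured value, though the set was drawn up with earlier results of these data known. All 8 passed the filter on low counts in every comparison. The 72 wells held 18 wells with DMSO, the solvent control, and 54 wells treated for 12 h with 1 of 6 compounds, in triplicate at each of the doses 100 nM, 1000 nM and 10000 nM. The compounds were triptolide (a transcription inhibitor), homoharringtonine (a translation inhibitor), pyrazolanthrone (a JNK inhibitor), nilotinib (an ABL kinase inhibitor), miglitol (an alpha-glucosidase inhibitor) and MK-2206 (an AKT inhibitor). All wells came from the same unmodified line, so every comparison describes this line alone, and nothing in the labels says that wells of a group were separate cultures started on different days. The p-values then measure the spread between wells, which may be technical. The paper's methods give the middle dose with another number than the labels, whose 1000 nM was used here.

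Library totals ran from 70767 to 68296309 expected counts with a median of 38.4 mil, and 3 libraries were under 10 mil: replicate 2 of triptolide at 100 nM (70767 counts), replicate 10 of DMSO (460014 counts) and replicate 1 of triptolide at 1000 nM (9628355 counts). Every count of members that passed a test and moved by more than 1 on the log2 scale was computed again without these 3 libraries, and none moved by more than 1.5 times. In the DMSO wells the mesenchymal and osteoblast-lineage markers VIM (median 1868 TPM), SPARC (median 2137 TPM), COL1A1 (median 452 TPM) and RUNX2 (median 3.81 TPM) were present, whereas COL1A2 was near 0 (median 0.07 TPM). PTPRC, PECAM1 and ALB, markers of leukocytes, endothelium and hepatocytes, had medians of at most 0.11 TPM, and the epithelial marker EPCAM a median of 2.38 TPM.

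Polyamines (putrescine, spermidine and spermine) are small cations that bind nucleic acids and are needed for growth. ODC1 makes putrescine, AMD1 supplies the aminopropyl donor, SRM turns putrescine into spermidine and SMS spermidine into spermine, while SAT1 acetylates spermidine and spermine for export or breakdown. The pathway is governed largely after transcription. Antizyme is read through a ribosomal frameshift that polyamines promote, it carries ODC1 to the proteasome without ubiquitin, and AZIN1, an inactive relative of ODC1, binds antizyme and frees ODC1. ODC1, AMD1 and SAT1 proteins turn over within minutes to an hour or so. None of this protein-level control is read by RNA-seq, which measures only the mRNAs.

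Several of these controls are written in the mRNA, and their sequences are shown because they mark what the counts cannot report on. The antizyme frameshift sites come from the GRCh38 genome with GENCODE 44 reading frames, where the annotated coding sequence skips 1 base of a stop codon; the capitals mark that stop codon, TGA. OAZ1 has the site at chr19:2271428-2271458 on the plus strand, after 204 coding bases, and OAZ2 at chr15:64691500-64691530 on the minus strand, after 96 coding bases.
OAZ1: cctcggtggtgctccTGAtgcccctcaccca
OAZ2: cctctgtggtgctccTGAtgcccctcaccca
The windows were identical at 30 of 31 bases. AMD1 carries a short upstream reading frame whose translation stalls in the presence of polyamines. It lies in the leader of the mRNA at chr6:110874796-110874816, plus strand, and starts 12 bases after the RefSeq transcription start; capitals mark its start and stop codons.
AMD1: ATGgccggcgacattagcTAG
SAT1 has an alternative exon that polyamines affect. A 7-exon transcript of 1135 bases, ENST00000489394, is annotated for nonsense-mediated decay, against 1049 bases and 6 exons for the coding transcript ENST00000379270. Its exon 4, at chrX:23784294-23784403 on the plus strand, has 110 bases.
SAT1: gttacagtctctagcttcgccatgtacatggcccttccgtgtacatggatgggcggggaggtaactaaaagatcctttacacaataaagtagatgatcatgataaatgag

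ODC1 and SRM are textbook targets of MYC, which with MAX binds the motif CACGTG. The motif was searched in RefSeq promoter windows that run from 250 bases before to 50 bases after each transcription start; it reads the same on both strands. It stood in 2548 of 35116 windows (7.26%), and among the 7 members with a window, which had 10 windows, in ODC1 and SRM. A gene with several windows has more places for the motif, so this count of genes is not comparable with the share of windows. In the ODC1 gene it occurred at 2 places near an annotated start, at chr2:10448024-10448053 and chr2:10447990-10448019, both between exon 1 (chr2:10448121-10448327) and exon 2 (chr2:10445155-10445264) of the transcript ENST00000234111; the SRM copy is at chr1:11060200-11060229. All are on the minus strand, with the motif in capitals.
ODC1: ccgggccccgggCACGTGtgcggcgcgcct
ODC1: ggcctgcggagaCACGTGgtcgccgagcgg
SRM: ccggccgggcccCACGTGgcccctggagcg

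The baseline order of the 8 mRNAs spanned a wide range. Levels between genes are given in TPM, which corrects for length. In DMSO, OAZ1 was highest with a median of 1505 TPM (range 1151 to 1796, 18 wells), followed by ODC1 with 459 TPM (288 to 646), SRM with 268 TPM (226 to 298), OAZ2 with 259 TPM (204 to 317), SMS with 109 TPM (83.2 to 139.6), AZIN1 with 84.9 TPM (53.6 to 127), AMD1 with 24.2 TPM (13 to 49.8) and SAT1 with 3.77 TPM (2.89 to 12.7). In that order, ODC1 and SRM, SRM and OAZ2, and SMS and AZIN1 overlapped in their ranges over the DMSO wells, and the other neighbours did not. The highest SAT1 value rests on 3 counts in the DMSO library of 460014 counts. The antizyme OAZ1 thus had more mRNA than its target ODC1 in DMSO wells, and the pathway's catabolic enzyme was its rarest message.

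In GRCh38 with GENCODE 44, SRM (ENSG00000116649) lies at chr1:11054584-11060020, ODC1 (ENSG00000115758) at chr2:10439968-10448327, OAZ2 (ENSG00000180304) at chr15:64687573-64703281 and AZIN1 (ENSG00000155096) at chr8:102826111-102893864, all on the minus strand. AMD1 (ENSG00000123505) lies at chr6:110874770-110898879, OAZ1 (ENSG00000104904) at chr19:2269509-2273490, SMS (ENSG00000102172) at chrX:21940709-21994837 and SAT1 (ENSG00000130066) at chrX:23783173-23786210, all on the plus strand. Counts are over whole genes, so the exons of all transcripts of a gene are read together.

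The DMSO wells differed from each other in a way that touched most members. A GC slope was computed for each library over 13700 genes, as how far log2 expression shifts for every 10 percentage points of transcript GC, and it ranged from -0.24 to 0.51 in DMSO wells. Across the 18 wells, log2(CPM + 1) of AZIN1 (40.5% GC) and AMD1 (37.9% GC) fell along the slope, with Pearson's r = -0.96 and Spearman's rho = -0.96 for AZIN1 and r = -0.90 and rho = -0.88 for AMD1. All 4 of these permutation tests gave an adjusted p of 8e-05, from an unadjusted p of 2e-05, the smallest that 100000 two-sided permutations can give. OAZ1 (59.1% GC) went the other way, with r = 0.80 (permutation p = 4e-05, adjusted p = 0.00011) and rho = 0.80 (permutation p = 0.00016, adjusted p = 0.00032).

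SMS had r = -0.84 (permutation p = 6e-05, adjusted p = 0.00012) and rho = -0.82 (permutation p = 8e-05, adjusted p = 0.00021). ODC1 had r = -0.76 (permutation p = 0.00034, adjusted p = 0.00054) and rho = -0.74 (permutation p = 0.00078, adjusted p = 0.001). SRM had r = 0.74 (permutation p = 0.00058, adjusted p = 0.00077) and rho = 0.78 (permutation p = 0.00026, adjusted p = 0.00042). OAZ2 did not pass, with r = 0.47 (permutation p = 0.052, adjusted p = 0.059) and rho = 0.42 (permutation p = 0.085, adjusted p = 0.085). SAT1 passed on ranks only, with r = -0.30 (permutation p = 0.23, adjusted p = 0.23) and rho = -0.50 (permutation p = 0.037, adjusted p = 0.042). Without the 2 wells farthest from the median slope, r was -0.94 for AZIN1, -0.86 for AMD1, 0.77 for OAZ1, -0.83 for SMS, -0.75 for ODC1, 0.64 for SRM, 0.36 for OAZ2 and -0.42 for SAT1 over 16 wells. The slope and the levels come from the same libraries. The adjustment is over the 8 genes, for r and for rho separately.

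The GC slope also differed between conditions. It was -0.41 to -0.25 in the wells of homoharringtonine at 10000 nM, all below the lowest DMSO well, 0.32 to 0.48 in those of triptolide at 10000 nM, and -0.18 to -0.06 in those of miglitol at 10000 nM. Fits with the slope as a covariate, added after seeing the data, are given beside the main results. Where the slope and a condition go together, the library property and the effect of the compound cannot be told apart, and at 10000 nM of homoharringtonine the covariate is used beyond the DMSO range.

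**Figure D1:**
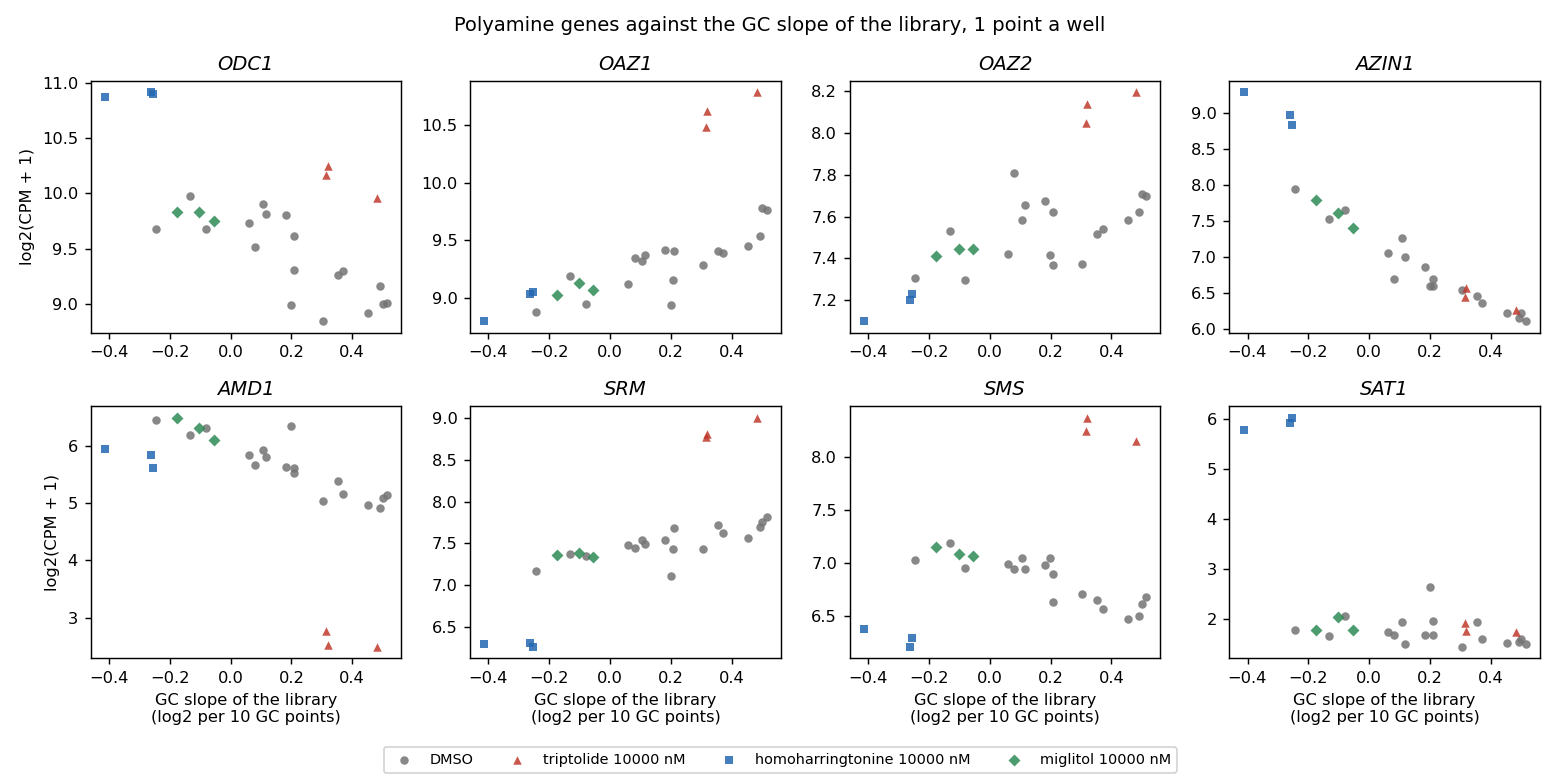
Each of the 8 plots shows log2(CPM + 1) of a gene on the y axis against the GC slope of the library (log2 expression per 10 GC percentage points) on the x axis, 1 point per well, for 18 DMSO wells and 3 wells each of triptolide, homoharringtonine and miglitol at 10000 nM. AZIN1 and AMD1 go down along the DMSO wells while OAZ1 goes up, and the miglitol wells lie within the DMSO band. Homoharringtonine wells off the band include those for ODC1, AZIN1, AMD1, SRM, SMS and SAT1. Triptolide wells off it include those for ODC1, OAZ1, OAZ2, AMD1, SRM and SMS.

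Homoharringtonine, which blocks elongation on newly started ribosomes, was compared with DMSO to show how the polyamine mRNAs stood when translation was inhibited. ODC1, AZIN1 and SAT1 rose and SRM, SMS, OAZ1 and OAZ2 fell at 10000 nM, and AMD1 did not pass the test at any dose. SAT1 had the largest change of the 8, about 25.5-fold at 10000 nM. At that dose, 7 of 8 members passed at a padj (Benjamini-Hochberg adjusted p of edgeR's quasi-likelihood test) under 0.05, beside 74.0% of all genes tested; at 1000 nM 6 of 8 passed beside 68.4%, and at 100 nM 3 of 8 beside 63.4%. The number that passed was thus near the background at the upper doses. Counting only those past 1 on the log2 scale (2-fold), 2, 4 and 4 members were differentially expressed from the lowest to the highest dose, beside 34.9%, 42.4% and 47.0% of all genes. The median log2(Fold Change) of the members at 10000 nM was -0.15, beside -0.05 over all genes. All comparisons against DMSO share the same 18 control wells.

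Values per gene across wells are in CPM, counts scaled to the library total by TMM. ODC1 had 458 to 1007 CPM in DMSO (median 682). In homoharringtonine wells it was 2195, 2016 and 1731 CPM at 100 nM, 1188, 1999 and 2009 CPM at 1000 nM, and 1929, 1909 and 1873 CPM at 10000 nM. All 9 treated wells were above all DMSO wells, and no order by dose was seen. ODC1 had a log2(Fold Change) of 1.51 ± 0.17 (SE, n = 3 against 18, padj = 2.3e-08) at 100 nM, 1.30 ± 0.18 (padj = 8.9e-07) at 1000 nM and 1.40 ± 0.17 (padj = 1.1e-07) at 10000 nM. With the GC slope as a covariate ODC1 was 1.27, 0.96 and 0.79, and passed at each dose (padj = 5.5e-10, 1.5e-07 and 0.0002).

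OAZ2, an antizyme, moved the other way. It had 156 to 223 CPM in DMSO (median 188), and 96.6, 99.8 and 107 CPM at 100 nM, 119.9, 108 and 100.4 CPM at 1000 nM, and 146, 149 and 136 CPM at 10000 nM of homoharringtonine. All 9 wells were below all DMSO wells, and the difference was smallest at the highest dose. Against DMSO, OAZ2 had a log2(Fold Change) of -0.87 ± 0.10 (padj = 6e-08), -0.77 ± 0.10 (padj = 5.4e-07) and -0.40 ± 0.10 (padj = 0.00055) from the lowest to the highest dose.

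OAZ1 had 470 to 880.2 CPM in DMSO (median 656) and 525, 530.1 and 444 CPM at 10000 nM of homoharringtonine. At that dose 1 of 3 wells was below all DMSO wells, and the log2(Fold Change) was -0.40 ± 0.14 (padj = 0.015). This OAZ1 difference turned to 0.09 (padj = 0.42) with the GC slope as a covariate, and without replicate 3 it did not pass (-0.33, padj = 0.10). At 100 nM (-0.14 ± 0.15, padj = 0.45) and 1000 nM (-0.15 ± 0.17, padj = 0.43) OAZ1 did not pass.

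AZIN1, which counteracts the antizymes, had 68.2 to 245 CPM in DMSO (median 99.5). It was 207, 178 and 111 CPM at 100 nM, 149.7, 323 and 472 CPM at 1000 nM, and 502, 454 and 624 CPM at 10000 nM of homoharringtonine. The 100 nM wells lay within the DMSO range, 2 of 3 wells at 1000 nM and all 3 wells at 10000 nM were above it. The log2(Fold Change) of AZIN1 was 0.51 ± 0.29 (padj = 0.13), 1.42 ± 0.29 (padj = 0.00015) and 2.14 ± 0.25 (padj = 5.4e-08). With that covariate, AZIN1 still passed at the upper doses, at 0.74 (padj = 2.2e-08) and 1.02 (padj = 1.6e-09), and was 0.05 (padj = 0.63) at 100 nM. Within 1000 nM, the well with the lowest AZIN1 level was the well with the highest GC slope, 0.33, and the well with the highest level was that with the lowest slope, -0.40.

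The biosynthetic enzymes downstream of ODC1 did not follow it. SRM had 137 to 224 CPM in DMSO (median 182), and 134, 159.6 and 188 CPM at 100 nM, 109, 83.2 and 78.0 CPM at 1000 nM, and 78.4, 76.2 and 78.1 CPM at 10000 nM of homoharringtonine. All wells at the upper doses were below all DMSO wells. SRM had a log2(Fold Change) of -0.18 ± 0.13 (padj = 0.22), -1.03 ± 0.14 (padj = 4.5e-07) and -1.28 ± 0.12 (padj = 6.9e-10). With the GC slope as a covariate, SRM no longer counted as past 1 on the log2 scale at 1000 or 10000 nM.

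SMS had 87.7 to 145 CPM in DMSO (median 120.1) and 72.9, 77.0 and 82.1 CPM at 10000 nM, all 3 below the DMSO range; at 1000 nM it was 66.0, 81.8 and 92.6 CPM, and 2 of 3 wells were below it. Against DMSO, SMS had a log2(Fold Change) of -0.06 ± 0.12 (padj = 0.69) at 100 nM, -0.50 ± 0.13 (padj = 0.0015) at 1000 nM and -0.58 ± 0.13 (padj = 0.0004) at 10000 nM. With the covariate SMS also passed at 100 nM (-0.21, padj = 0.0099).

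AMD1 had 29.0 to 86.9 CPM in DMSO (median 48.2) and 56.6, 47.9 and 60.6 CPM at 10000 nM of homoharringtonine, within the DMSO range. The log2(Fold Change) of AMD1 was 0.26 ± 0.27 (padj = 0.41), -0.25 ± 0.30 (padj = 0.47) and 0.11 ± 0.27 (padj = 0.72) from the lowest to the highest dose. With the GC slope as a covariate AMD1 was -0.12 (padj = 0.29), -0.80 (padj = 3.4e-07) and -0.85 (padj = 2.9e-06), and its call at the upper doses depended on this covariate.

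SAT1, the rarest of the 8 in DMSO, had the widest response. It had 1.72 to 5.26 CPM in DMSO (median 2.19), and 10.0, 8.73 and 8.02 CPM at 100 nM, 24.9, 31.0 and 31.0 CPM at 1000 nM, and 59.4, 64.4 and 54.5 CPM at 10000 nM of homoharringtonine. All 9 wells were above all DMSO wells, and the wells of the 3 doses did not overlap each other. SAT1 had a log2(Fold Change) of 1.98 ± 0.15 (padj = 3.2e-11), 3.66 ± 0.13 (padj = 4.9e-17) and 4.67 ± 0.13 (padj = 2.6e-19). With that covariate, SAT1 was 1.87, 3.54 and 4.44. In TPM its median went from 3.77 in DMSO to 98.8 at 10000 nM, above the AMD1 median of 33.2 TPM in the same wells.

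**Figure D2:**
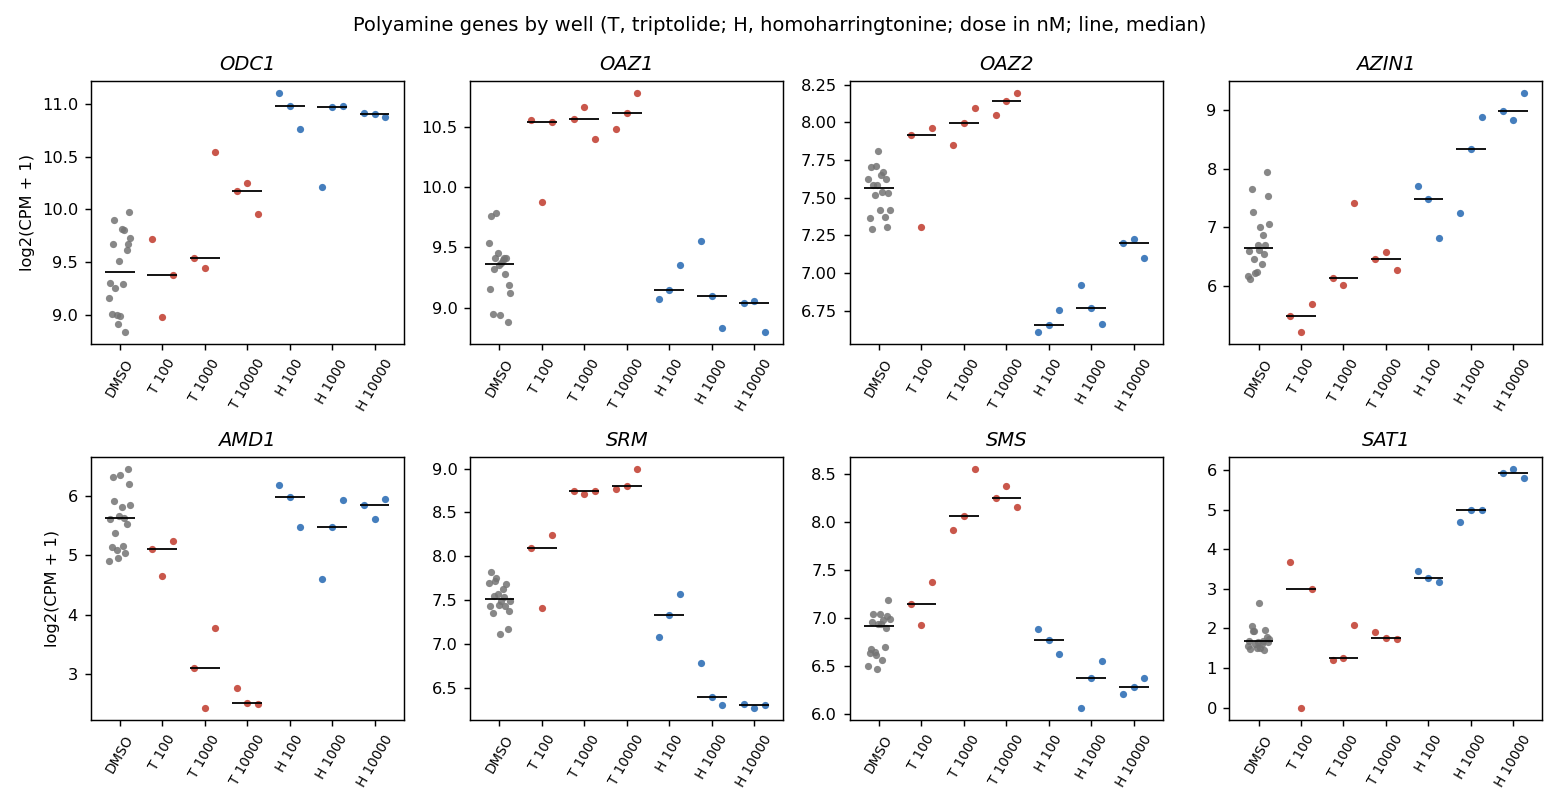
The y axes give log2(CPM + 1) of each gene and the x axes the condition, with 1 point per well and a line at the median, for 18 DMSO wells and 3 wells per dose of triptolide (T) and homoharringtonine (H). SAT1 in homoharringtonine wells rises from 8.02 to 10.0 CPM at 100 nM to 54.5 to 64.4 CPM at 10000 nM, and AMD1 in triptolide wells is at 4.63 to 5.81 CPM at 10000 nM against 29.0 to 86.9 CPM in DMSO; the CPM of triptolide wells are relative to the other mRNAs of the same library.

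Triptolide, which stops transcription by RNA polymerase II, was compared with DMSO to show which polyamine mRNAs kept their share of the remaining mRNA. Relative to other mRNAs, OAZ1, OAZ2, SRM and SMS rose at all 3 doses and ODC1 at 10000 nM, while AMD1 fell at the upper doses; scaled to mitochondrial mRNAs, all 5 genes were below 0 at those doses, and OAZ1 at 100 nM (-0.54, padj = 0.15) did not pass there. The 100 nM calls depended on the processing: of 5 members that passed higher, 2 did with library sizes only and 3 with no filter on low counts, and with at least 10 counts in every well 1 of 5 members tested did. OAZ2 at 100 nM was 0.03 (padj = 0.81), 0.24 (padj = 0.12) and -0.35 (padj = 0.00051) in these fits, SMS 0.11 (padj = 0.94), 0.32 (padj = 0.088) and -0.29 (padj = 0.19), and SRM 0.26 (padj = 0.054), 0.47 (padj = 0.0055) and -0.11 (padj = 0.23). In the main fit SAT1 rose and AZIN1 fell past the threshold at 100 nM and at neither of the upper doses. With library sizes only, 3 members passed higher and 2 lower at 1000 nM in place of 4 and 1. At 10000 nM that fit gave 3 higher and 3 lower in place of 5 and 1. Without replicate 3, 2 passed lower at 1000 nM in place of 1. Scaled to mitochondrial mRNAs, all 8 passed lower at both upper doses. At 10000 nM, 6 of 8 members passed beside 71.8% of all genes tested, at 1000 nM 5 of 8 beside 67.4% and at 100 nM 6 of 8 beside 56.8%. The number that passed higher at 1000 nM was 5 in place of 4 with DESeq2 or with the GC slope as a covariate. It was also 5 without the libraries under 10 mil, without replicate 1 and without replicate 2. It stayed at 4 without replicate 3, with a replicate block, with either other filter on low counts and in 1 fit of all 72 wells. Past 1 on the log2 scale there were 3, 4 and 4 members from the lowest to the highest dose, beside 32.4%, 44.2% and 46.4% of all genes. The median log2(Fold Change) of the members at 10000 nM was 0.58, beside -0.17 over all genes.

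The scale matters more here than for any other compound. The 13 mitochondrially encoded mRNAs, which another polymerase makes, took 0.138% to 0.367% of the counts in DMSO wells and 1.01% to 1.15% in wells of triptolide at 10000 nM. Scaling to them moved the median of all genes at 10000 nM by -2.75 on the log2 scale, and scaling by library totals alone moved it by -0.53. Changes are given relative to the TMM scale, and were not measured per cell. In bulk wells, fewer cells and less RNA per cell cannot be told apart.

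AMD1 fell furthest. It had 33.6, 24.1 and 36.8 CPM at 100 nM of triptolide, 7.59, 4.42 and 12.8 CPM at 1000 nM, and 5.81, 4.72 and 4.63 CPM at 10000 nM, against a DMSO range of 29.0 to 86.9 CPM. All 6 wells at the upper doses were below all DMSO wells. Against DMSO, AMD1 had a log2(Fold Change) of -0.51 ± 0.33 (padj = 0.19), -2.55 ± 0.37 (padj = 1.3e-06) and -3.34 ± 0.36 (padj = 7.7e-09), and the fall held under each scaling tried.

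OAZ1 had 1509, 939.7 and 1489.6 CPM at 100 nM, 1515, 1625 and 1354 CPM at 1000 nM, and 1429, 1573 and 1762 CPM at 10000 nM of triptolide. All 9 wells were above the highest DMSO well, 880.2 CPM, and the lowest of them was the library of 70767 counts. The log2(Fold Change) of OAZ1 was 1.07 ± 0.15 (padj = 1.4e-06), 1.20 ± 0.13 (padj = 2.1e-08) and 1.25 ± 0.13 (padj = 8e-09), and -0.54, -1.27 and -1.58 when scaled to mitochondrial mRNAs. OAZ2 rose less, by 0.33 ± 0.11 (padj = 0.017), 0.43 ± 0.10 (padj = 0.00033) and 0.54 ± 0.09 (padj = 1.2e-05); it was at -0.02 at 1000 nM and at or just below 0 at 10000 nM by library totals alone, and at -2.26 at 10000 nM when scaled to mitochondrial mRNAs. At 100 nM OAZ2 did not pass without replicate 1 (0.31, padj = 0.084) or without replicate 3 (0.27, padj = 0.13).

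SRM had 271, 169 and 302 CPM at 100 nM, 429, 418 and 428 CPM at 1000 nM, and 436, 445 and 510.3 CPM at 10000 nM of triptolide. All 6 wells at the upper doses were above the highest DMSO well, 224 CPM, and 2 of 3 at 100 nM. SRM had a log2(Fold Change) of 0.55 ± 0.13 (padj = 0.00087), 1.20 ± 0.10 (padj = 2.2e-10) and 1.29 ± 0.10 (padj = 4.3e-11), and -1.52 at 10000 nM when scaled to mitochondrial mRNAs.

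SMS had 140.1, 120.5 and 165 CPM at 100 nM, 241, 267 and 375 CPM at 1000 nM, and 303, 330 and 284 CPM at 10000 nM of triptolide, and all 6 wells at the upper doses were above the highest DMSO well, 145 CPM. Against DMSO, SMS had a log2(Fold Change) of 0.41 ± 0.14 (padj = 0.016), 1.37 ± 0.12 (padj = 4.1e-10) and 1.39 ± 0.11 (padj = 4.2e-11), and -1.36 at 10000 nM when scaled to mitochondrial mRNAs. At 100 nM SMS did not pass without replicate 3 (0.31, padj = 0.17). The 2 aminopropyl transferases were therefore on opposite sides of DMSO in the 2 inhibitors on the TMM scale, higher in triptolide and lower in homoharringtonine, and on the same side, lower in both, on the mitochondrial scale.

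ODC1 had 842, 506 and 666 CPM at 100 nM, 744, 698 and 1493 CPM at 1000 nM, and 1151, 1214 and 995 CPM at 10000 nM of triptolide. At 10000 nM, 2 of 3 wells were above all DMSO wells. The log2(Fold Change) of ODC1 was 0.00 ± 0.21 (padj = 0.99), 0.46 ± 0.21 (padj = 0.061) and 0.62 ± 0.19 (padj = 0.0043); at 10000 nM it was 0.09 (padj = 0.66) by library totals alone and -2.11 when scaled to mitochondrial mRNAs.

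AZIN1 had 43.9, 36.1 and 50.7 CPM at 100 nM of triptolide, all below the lowest DMSO well of 68.2 CPM, then 69.5, 63.5 and 169 CPM at 1000 nM and 86.4, 94.4 and 76.3 CPM at 10000 nM. AZIN1 had a log2(Fold Change) of -1.32 ± 0.38 (padj = 0.0047), -0.23 ± 0.33 (padj = 0.56) and -0.49 ± 0.31 (padj = 0.15). With the GC slope as a covariate AZIN1 was -0.69 at 100 nM and still passed (padj = 1.4e-05). Without replicate 1 it no longer passed at 100 nM (-1.20, padj = 0.058).

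SAT1 in triptolide wells rested on few counts. At 100 nM it had 11.7, 0 and 6.94 CPM, from 331, 0 and 63 counts. The 0 of replicate 2 comes from the library of 70767 counts, where a count of 0 allows up to 3 counts or 42.4 CPM by counting error, so this well does not bear on the level. The other 2 wells were above all DMSO wells. At 1000 nM it had 1.29, 1.40 and 3.25 CPM, and at 10000 nM 2.77, 2.40 and 2.33 CPM. Against DMSO, SAT1 had a log2(Fold Change) of 2.01 ± 0.20 (padj = 1.1e-08), -0.12 ± 0.24 (padj = 0.69) and 0.09 ± 0.18 (padj = 0.69), and at 100 nM 0.34 (padj = 0.28) when scaled to mitochondrial mRNAs.

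At 1000 nM of triptolide, replicate 3 held the highest value of the 3 wells for ODC1, OAZ2, AZIN1, AMD1, SMS and SAT1; its library had a GC slope of 0.08 against 0.53 and 0.49 in the other wells and 57.4 mil counts against 9.63 and 10.7 mil. The part of these library differences in the spread of that dose was not tested.

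**Figure D3:**
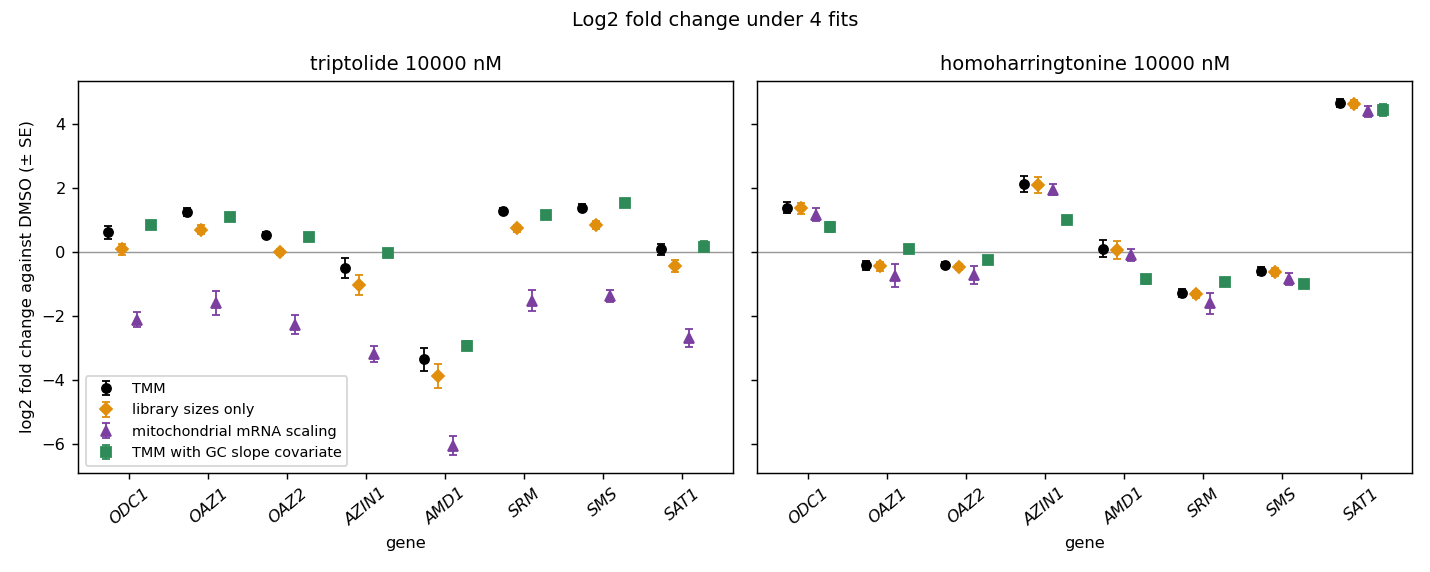
The y axis gives the log2 fold change against DMSO with its SE and the x axis the 8 genes, at 10000 nM of triptolide (left) and homoharringtonine (right), under TMM, library sizes only, scaling to mitochondrial mRNAs, and TMM with the GC slope as a covariate. In triptolide the mitochondrial scale puts all 8 genes below 0, OAZ1 from 1.25 to -1.58, whereas in homoharringtonine it leaves the side of 0 as it was for all but AMD1; there the GC slope covariate has the larger effect, with AZIN1 at 1.02 in place of 2.14 and OAZ1 at 0.09 in place of -0.40.

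Triptolide and homoharringtonine were also compared directly at matched doses, which uses no DMSO well. At 10000 nM, OAZ1, OAZ2, SRM and SMS were higher in triptolide and ODC1, AZIN1, AMD1 and SAT1 lower, all 8 past the threshold beside 88.4% of genes tested; OAZ1, OAZ2 and SMS turned to lower when scaled to mitochondrial mRNAs, and SRM to 0.07 (padj = 0.61). SAT1 differed most, by -4.50 ± 0.12 (padj = 8.2e-11), and AMD1 by -3.37 ± 0.13 (padj = 7.9e-10). SRM differed by 2.65 ± 0.08 (padj = 1.3e-10), SMS by 2.06 ± 0.08 (padj = 8.7e-10), OAZ1 by 1.74 ± 0.10 (padj = 2.3e-08), and OAZ2 by 1.03 ± 0.07 (padj = 1.3e-07). AZIN1 differed by -2.55 ± 0.12 (padj = 4.6e-09) and ODC1 by -0.69 ± 0.08 (padj = 9.3e-06). With that covariate, ODC1 (-0.28, padj = 0.46) and OAZ2 (0.52, padj = 0.069) no longer passed at 10000 nM.

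Past 1 on the log2 scale there were 4, 7 and 7 members from the lowest to the highest dose, beside 47.9%, 58.6% and 68.1% of all genes. At 1000 nM, 7 of 8 members passed beside 66.8%, and ODC1 did not (-0.84 ± 0.33, padj = 0.052). At 100 nM, 7 of 8 passed beside 65.5%, and SAT1 did not (0.14 ± 0.28, padj = 0.69); here SAT1 wells of both compounds were above DMSO apart from the well listed at 0. The direct difference for SAT1 thus went from 0.14 at 100 nM to -3.76 ± 0.39 (padj = 5.6e-05) at 1000 nM and -4.50 at 10000 nM. AZIN1 at 1000 nM (-1.66 ± 0.50, padj = 0.017) no longer passed without the libraries under 10 mil (-1.45, padj = 0.060) or without replicate 2 (-1.42, padj = 0.053). With the GC slope as a covariate, 5 of 8 members passed at 100 nM (3 higher and 2 lower, in place of 4 and 3), and AMD1 (-0.70 ± 0.22, padj = 0.011) turned to 0.10 (padj = 0.72) and SRM was 0.46 (padj = 0.16). At 100 nM AMD1 was also lost without replicate 1 (-0.45, padj = 0.23), and SMS (0.54 ± 0.18, padj = 0.012) without replicate 2 (0.51, padj = 0.059) or replicate 3 (0.11, padj = 0.53).

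The other 4 compounds left the polyamine genes near their DMSO levels on the TMM scale. In the fit without a covariate or a block, no member differed by more than 1 on the log2 scale, and 5 member and dose pairs passed. SAT1 accounted for 3 of these, all rises at 10000 nM: 3.70, 4.80 and 3.45 CPM in MK-2206 (log2(Fold Change) 0.80 ± 0.17, padj = 0.008), 4.47, 4.27 and 3.48 CPM in nilotinib (0.84 ± 0.17, padj = 0.0011), and 4.28, 3.82 and 2.88 CPM in pyrazolanthrone (0.64 ± 0.18, padj = 0.024). None of these wells was above the DMSO maximum of 5.26 CPM, which rests on 3 counts; against the 17 DMSO wells over 10 mil, 3 of 3, 3 of 3 and 2 of 3 wells were above all. With the GC slope as a covariate SAT1 passed in each of the 3 compounds (0.82, 0.74 and 0.52, padj = 0.00058, 0.0013 and 0.047). Scaled to mitochondrial mRNAs it did not pass in any (0.54, 0.16 and 0.28, padj = 0.27, 0.54 and 0.40). On that scale 4 members passed lower in nilotinib at 10000 nM, in place of 1.

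Leaving out a replicate ended the SAT1 call in MK-2206 (without replicate 2, 0.67, padj = 0.12) and in pyrazolanthrone (without replicate 1, 0.52, padj = 0.24, and without replicate 2, 0.63, padj = 0.14). The call in pyrazolanthrone at 10000 nM was also lost with no filter on low counts.

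The remaining calls were small. OAZ2 fell in nilotinib at 10000 nM, with 133, 148 and 155 CPM, all below the lowest DMSO well of 156 CPM (-0.35 ± 0.10, padj = 0.015). SRM rose in nilotinib at 100 nM, with 191, 299 and 242 CPM (0.40 ± 0.12, padj = 0.035), and 2 of 3 wells were above the DMSO range. The OAZ2 call was lost without replicate 1 (-0.28, padj = 0.18) or replicate 2 (-0.37, padj = 0.065), and the SRM call without replicate 2 (0.26, padj = 0.50) or replicate 3 (0.43, padj = 0.18). In nilotinib at 100 nM no member passed with library sizes only, scaled to mitochondrial mRNAs, with no filter on low counts or with a replicate block. The share of all genes that passed was 14.4% in nilotinib at 10000 nM (2 of 8 members), 9.08% at 100 nM (1 of 8), 7.65% in pyrazolanthrone at 10000 nM (1 of 8) and 3.15% in MK-2206 at 10000 nM (1 of 8). At the other doses no member passed in this fit, beside 0.0648% and 1.52% in MK-2206 at 100 and 1000 nM, 3.95% in nilotinib at 1000 nM, and 4.77% and 0% in pyrazolanthrone at 100 and 1000 nM. The share of all genes past 1 on the log2 scale was, from the lowest to the highest dose, 0.0054%, 0.286% and 0.711% in MK-2206, 1.48%, 1.13% and 3.12% in nilotinib, and 0.923%, 0% and 1.16% in pyrazolanthrone. In miglitol, an enzyme inhibitor of the gut, no member and no gene passed by edgeR in this fit (0% at each dose); at 10000 nM, 3 members had an unadjusted p under 0.05, and DESeq2 called 0 of 8.

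More members passed in these compounds with the GC slope as a covariate. In nilotinib at 100 nM 4 passed higher in place of 1: AMD1 (0.42, padj = 0.0066), AZIN1 (0.27, padj = 0.025), SMS (0.28, padj = 0.0075) and SRM (0.23, padj = 0.016). At 1000 nM of nilotinib 3 passed higher in place of 0: AMD1 (0.34, padj = 0.023), SMS (0.21, padj = 0.039) and SRM (0.29, padj = 0.0019). SAT1 passed in pyrazolanthrone at 100 nM (0.63, padj = 0.027), SRM in miglitol at 1000 nM (0.26, padj = 0.042), and ODC1 (-0.39, padj = 0.049) and SRM (-0.25, padj = 0.012) passed lower in MK-2206 at 10000 nM. All of these differences were under 1 on the log2 scale.

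**Figure D4:**
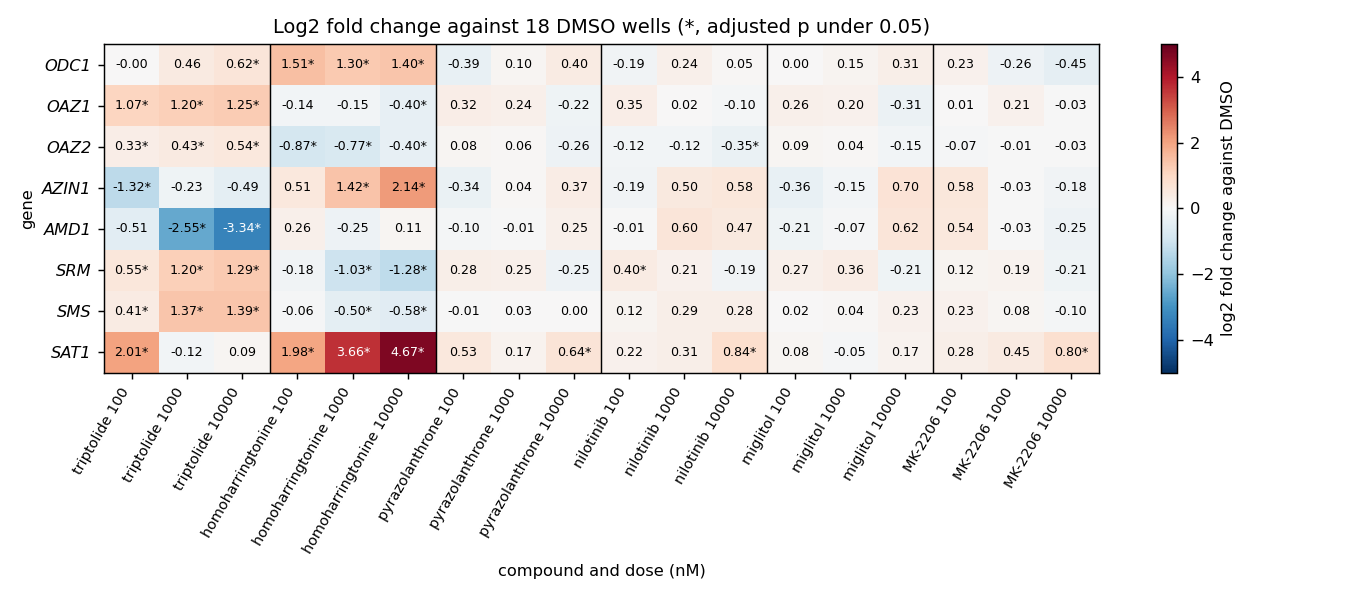
Each cell gives the log2 fold change of a gene (rows) in 1 compound and dose (columns, in nM) against 18 DMSO wells on the TMM scale, with * for an adjusted p under 0.05. Triptolide and homoharringtonine hold 33 of the 38 starred cells, SAT1 at 4.67 in homoharringtonine is the highest and AMD1 at -3.34 in triptolide the lowest; on the mitochondrial scale the positive triptolide cells of OAZ1, OAZ2, SRM, SMS and ODC1 at 10000 nM are negative.

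Dose trends, the slope of log2 expression per 10-fold dose over the 9 wells of a compound, use no DMSO well. In homoharringtonine SAT1 rose by 1.33 ± 0.10 (padj = 6.8e-06), AZIN1 by 0.80 ± 0.18 (padj = 0.004) and OAZ2 by 0.22 ± 0.06 (padj = 0.014) per 10-fold dose, and SRM (-0.56 ± 0.09, padj = 0.00087) and SMS (-0.27 ± 0.08, padj = 0.017) fell. That is 5 of 8 members beside 44.0% of genes tested. ODC1 had a slope of -0.06 ± 0.09 (padj = 0.62): it was 1.51 above DMSO at 100 nM and 1.40 at 10000 nM. In the fit with the GC slope covariate 7 of 8 members passed, 3 higher and 4 lower in place of 3 and 2, ODC1 (-0.20 ± 0.06, padj = 0.017) and AMD1 (-0.34 ± 0.09, padj = 0.0069) being the added ones. OAZ2 rose with dose while staying below DMSO, since its fall was deepest at 100 nM. Fits on 6 wells, with a replicate left out, lost OAZ2 without replicate 1 (0.20, padj = 0.075) or replicate 2 (0.21, padj = 0.19), and SMS without replicate 2 (-0.27, padj = 0.15) or replicate 3 (-0.32, padj = 0.060).

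In triptolide, 4 of 8 members passed beside 24.7%: AMD1 fell by 1.43 (slope -1.43 ± 0.18, padj = 0.00019) per 10-fold dose and SAT1 by 0.95 (slope -0.95 ± 0.25, padj = 0.015), and SMS (0.41 ± 0.12, padj = 0.028) and SRM (0.31 ± 0.10, padj = 0.036) rose on the TMM scale, the mitochondrial scale not having been run for trends. OAZ1 had a slope of 0.03 ± 0.08 (padj = 0.81). With a replicate left out, SAT1 was lost without replicate 1 (-0.75, padj = 0.16) or replicate 3 (-1.0, padj = 0.12), SMS without replicate 1 (0.34, padj = 0.23) or replicate 2 (0.42, padj = 0.11), and SRM without any of the 3 (0.31 each, padj = 0.068 to 0.20), while AMD1 still passed. In miglitol AMD1 (0.42 ± 0.11, padj = 0.033), AZIN1 (0.54 ± 0.12, padj = 0.028) and OAZ1 (-0.28 ± 0.07, padj = 0.035) passed, 3 of 8 beside 15.9%, and in pyrazolanthrone OAZ1 (-0.28 ± 0.09, padj = 0.043) and SRM (-0.27 ± 0.08, padj = 0.037), 2 of 8 beside 18.6%. With that covariate, none of the 8 members passed in either compound (0 of 8 in both), and none passed in miglitol without any replicate or in pyrazolanthrone without replicate 2 or 3. No member passed in nilotinib (background 3.09%) or MK-2206 (0.028%) by edgeR, with 1 of 8 at an unadjusted p under 0.05 in each, and DESeq2 called 1 of 8 in nilotinib and 0 of 8 in MK-2206. With the covariate, 4 of 8 members passed in MK-2206: SAT1 (0.31 ± 0.07, padj = 0.024), AMD1 (-0.19 ± 0.04, padj = 0.025), ODC1 (-0.19 ± 0.05, padj = 0.042) and SRM (-0.23 ± 0.04, padj = 0.0048).

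The mean transcript length that RSEM gives per gene, weighted by isoform abundance, was compared as the only trace of isoform use in these values. No member passed in any of the 18 comparisons with DMSO by limma (0 of 144 tests), and 12 of the 144 had an unadjusted p under 0.05. Over all genes, the share that passed was 2.67%, 4.72% and 7.77% in homoharringtonine from the lowest to the highest dose, 17.5%, 10.8% and 8.0% in triptolide, 0.0539%, 0.0135% and 0.0604% in nilotinib, 0.332%, 0% and 0.0202% in pyrazolanthrone, 0.00674%, 0% and 0.00674% in miglitol, and 0%, 0% and 0.00673% in MK-2206. SAT1, whose transcript annotated for decay is longer than the coding transcript, had 1089, 1095 and 1089 bases at 10000 nM of homoharringtonine, above the DMSO range of 728 to 1067 bases (median 1028); it had 1068, 1080 and 1079 bases at 1000 nM and 1068, 1056 and 1060 bases at 100 nM. The log2 difference of SAT1 at 10000 nM was 0.12 ± 0.08 (padj = 0.40) and 0.11 ± 0.07 (padj = 0.34) without the libraries under 10 mil. The shortest DMSO value comes from replicate 14, with 36 SAT1 counts. SAT1 also has shorter annotated transcripts, a coding one of 868 bases and retained-intron ones of 432 to 1033 bases. The mean length does not tell which transcripts changed their share, and this was not tested.

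A wider list of 23 polyamine genes, which like the 8 was drawn up with earlier results known, was counted in the same fits. In homoharringtonine at 10000 nM 20 of them were tested, and 12 passed higher and 6 lower, beside 74.0% of all genes tested; 12 moved by more than 1 on the log2 scale (7 higher and 5 lower), beside 47.0% of all genes. The hypusine genes, which modify the translation factor EIF5A with spermidine, had 3 higher and 1 lower of 4, back-conversion and salvage 1 higher and 1 lower of 3, the antizyme and inhibitor paralogues 2 higher of 2 tested, precursor supply 4 higher and 2 lower of 6 tested, and transport 2 higher and 2 lower of 5 tested. The largest rises were AGMAT, a member of the ureohydrolase family, at 3.86 ± 0.39 (padj = 4.3e-09), and ARG2, the mitochondrial arginase that yields ornithine, at 2.74 ± 0.09 (padj = 3.2e-18). ARG2 had 162, 163 and 161 CPM against 17.6 to 31.5 CPM in DMSO. AGMAT rests on 15 to 22 counts per treated well and 0 to 4 per DMSO well, and its fitted fold depends on the prior count.

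The largest falls in homoharringtonine were MAT2A, which makes the methyl donor that AMD1 decarboxylates, at -2.00 ± 0.28 (padj = 5.9e-07), with 37.4, 38.6 and 35.3 CPM against 84.1 to 218 CPM in DMSO, and GPC1, a glypican linked to polyamine uptake, at -1.97 ± 0.13 (padj = 2.3e-12), with 164, 152 and 172 CPM against 455 to 769 CPM. Both groups of wells were apart from DMSO. At 100 nM of homoharringtonine GPC1 was instead higher than DMSO, at 1.63 ± 0.12 (padj = 1.5e-11), with 1709, 1669.6 and 2359 CPM, and at 1000 nM it was -0.84 ± 0.14 (padj = 1.6e-05). In triptolide at 10000 nM 19 of the 23 were tested, and 9 passed higher and 5 lower, beside 71.8% of all genes tested; 6 moved by more than 1 (4 higher and 2 lower), beside 46.4% of all genes. Of the hypusine genes 2 passed higher and 1 lower, of precursor supply 3 higher and 2 lower of 5 tested, of transport 3 higher of 5 tested, of the paralogues 1 higher and 1 lower of 2 tested, and of back-conversion and salvage 1 lower of 3.

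In triptolide the largest rises were DHPS, which starts hypusine synthesis, at 1.53 ± 0.11 (padj = 2.7e-12; -1.28 when scaled to mitochondrial mRNAs), and GPC1 at 1.40 ± 0.11 (padj = 3.6e-11; -1.41 on that scale). DHPS had 88.5, 88.9 and 101 CPM against 24.3 to 36.8 CPM in DMSO. The largest falls were SMOX, which oxidises spermine back to spermidine, at -1.32 ± 0.15 (padj = 1.6e-08), and AZIN2, a relative of AZIN1, at -1.01 ± 0.16 (padj = 6.8e-06). Whether AZIN2 was past 1 depended on the fit. It was -0.83 with DESeq2, -0.96 in 1 fit of all 72 wells and -0.98 without replicate 2. In the other fits that tested AZIN2 it was -1.0 to -3.83. SMOX had 9.68, 9.26 and 11.4 CPM in triptolide and 154, 151 and 133 CPM in homoharringtonine at 10000 nM, against 18.2 to 30.4 CPM in DMSO. PAOX, a back-conversion oxidase, did not pass in homoharringtonine at any dose (0.07 ± 0.19, padj = 0.75 at 10000 nM). No gene of the wider list moved by more than 1 in the other compounds.

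Over the means of the 19 conditions, the members fell into no single pattern. Among 9371 protein-coding genes with at least 10 CPM on average, the genes with a pattern most like ODC1 were VPS45 (Pearson's r = 0.965) and ACOT9 (0.958), like OAZ1 LMAN2 (0.992) and MYL6B (0.991), like OAZ2 ARHGEF25 (0.971) and MAST2 (0.97), and like AZIN1 ZFYVE16 (0.984) and WASHC4 (0.982). For AMD1 they were RANBP6 (0.992) and MTF2 (0.981), for SRM FTSJ1 (0.992), for SMS NAP1L4 (0.972) and SEPTIN2 (0.969), and for SAT1 RUFY1 (0.981) and ACTN2 (0.973). Within the 8, the highest correlations were 0.87 for SRM with SMS and 0.86 for OAZ1 with SRM, and the lowest -0.88 for OAZ1 with AMD1. These are descriptions over 19 means that share libraries, scaling and GC slope.

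MYC, whose motif stands near the starts of ODC1 and SRM, had a median of 101 TPM in DMSO, 329, 73.9 and 25.9 TPM in homoharringtonine and 26.2, 1.06 and 1.01 TPM in triptolide from the lowest to the highest dose. SRM and ODC1 were on opposite sides of DMSO in homoharringtonine at 1000 and 10000 nM, where the MYC median was below that of DMSO. The MYC wells at 1000 nM (66.0 to 91.4 TPM) overlapped the DMSO range (82.1 to 168 TPM). At 100 nM, where MYC was at 299 to 364 TPM, ODC1 was above DMSO and SRM did not pass. A relation of MYC to either gene was not tested.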

How the data were processed

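Population RNA-seq was measured in 72 wells of U2OS cells (poly(A) libraries, TruSeq Stranded mRNA, Illumina HiSeq). The authors made the deposited expected counts (estimated reads per gene), TPM values and mean transcript lengths with RSEM on GRCh38. HTSeq and DESeq2 also stand in the submitters' processing notes, and tool versions and the annotation release are not given in the sources used here. The labels and the paper's methods name different RNA extraction kits. Gene symbols, positions and coding frames came from GENCODE 44 (56104 of 60371 listed IDs matched) and promoter windows from RefSeq.

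Expected counts were rounded and tested with edgeR 4.0.16 (quasi-likelihood, TMM, filterByExpr with a minimum count of 10) in R 4.3.3, each compound and dose (3 wells) against 18 DMSO wells, triptolide against homoharringtonine at matched doses, and slopes on log10 dose over 9 wells. Benjamini-Hochberg adjustment ran over all genes tested, and an adjusted p under 0.05 passed. Lengths were tested with limma 3.58.1 on the log2 scale. DESeq2 1.42.0, other scalings, filters, a replicate block, left-out wells and, chosen after seeing the data, a covariate for each library's GC slope were alternatives. Permutation tests used scipy 1.17.1 with 100000 resamples on log2(CPM + 1).

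On simulated counts for 14405 genes, 200 of 200 changed genes were recovered in 3 wells against 18, with 12 false calls. Each changed gene was given a log2 change of 2, up or down, with the same spread for all genes and no GC slope. The simulation therefore does not bear on smaller changes, or on comparisons in which most genes passed. Groups came from the labels. The 8 genes, the wider list and the tests were chosen with earlier results of these data known. All 8 genes were named. From the wider list the text named, for triptolide and homoharringtonine at 10000 nM, the 2 largest rises and 2 largest falls among genes past 1 on the log2 scale. PAOX in homoharringtonine was named outside this rule. For likeness, the 2 protein-coding genes with the highest correlation were named, except 1 that is not reported here. SMOX in homoharringtonine was named after its values were seen. Depth was 70767 to 68296309 counts per well, and intervals from counts cover counting error only.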

Additional observations from a re-analysis of the deposited data

Results flagged for a closer look

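In 2 members that passed against DMSO, the dose slope of the compound passed as well and its effect was largest at the lowest dose, and they are given here for that; the slopes of the other members that passed stand with the dose trends. SAT1 fell by 0.95 per 10-fold dose of triptolide (slope -0.95 ± 0.25, padj = 0.015), from a log2(Fold Change) of 2.01 at 100 nM to -0.12 at 1000 nM and 0.09 at 10000 nM, and the 100 nM value rests on 331 and 63 counts in 2 wells beside a well at 0. The SAT1 slope no longer passed without replicate 1 (-0.75, padj = 0.16) or replicate 3 (-1.0, padj = 0.12). OAZ2 rose by 0.22 ± 0.06 (padj = 0.014) per 10-fold dose of homoharringtonine while below DMSO at each dose, at -0.87, -0.77 and -0.40, and its slope no longer passed without replicate 1 (0.20, padj = 0.075) or replicate 2 (0.21, padj = 0.19).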

How the results depend on the processing

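Scaling to mitochondrial mRNAs turned the most results. At 100, 1000 and 10000 nM of triptolide, OAZ1 was -0.54, -1.27 and -1.58, OAZ2 -1.32, -2.04 and -2.26, SMS -1.18, -1.08 and -1.36, and SRM -1.11, -1.28 and -1.52, with ODC1 at -2.11 at 10000 nM, and 6, 8 and 8 members were past 1 on the log2 scale in place of 3, 4 and 4. Against homoharringtonine, OAZ1 was -0.26, -1.08 and -0.85, OAZ2 -0.33, -1.2 and -1.56, SMS -1.07, -0.48 and -0.53, and SRM -0.8 and -0.2 at 100 and 1000 nM. In nilotinib at 10000 nM 0 members passed higher and 4 lower in place of 1 and 1, and 1 member was past 1 in place of 0. With library sizes only, the triptolide counts at 1000 and 10000 nM were 1 and 2, and OAZ2 was at -0.02 and -0.0.

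With the GC slope covariate, the counts past 1 were 1 and 2 in place of 4 and 4 at 1000 and 10000 nM of homoharringtonine, 1 in place of 3 at 100 nM of triptolide, and 2 in place of 4 between the compounds at 100 nM, where AMD1 was 0.1. OAZ1 was 0.09 in homoharringtonine at 10000 nM. Dose trends were 4 in place of 0 in MK-2206, 0 in place of 3 in miglitol and 0 in place of 2 in pyrazolanthrone, and lengths passed for 2 and 1 members in place of 0 in triptolide at 1000 and 10000 nM. With at least 10 counts in every well, 1487 genes were tested in triptolide at 100 nM, with 0 members past 1 and OAZ2 at -0.35, SMS at -0.29 and SRM at -0.11. Counts under that filter were 1 in homoharringtonine at 100 nM, 1 between the compounds at 100 nM, where SMS was -0.27, and 1 for the triptolide trend. DESeq2 called 5, 1 and 4 dose trends in miglitol, nilotinib and pyrazolanthrone in place of 3, 0 and 2.

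The replicate numbers were not shown to pair the wells, since same-numbered wells had a mean correlation of -0.063 over 54 pairs and 24 of the 54 were over 0.1. The replicate block, with DMSO replicates 1 to 3, gave 2 members in miglitol and 2 in nilotinib at 10000 nM in place of 0, 1 in place of 3 at 100 nM of triptolide, and trends of 1, 5 and 1 in nilotinib, pyrazolanthrone and triptolide. With it 4 members passed higher and 2 lower in miglitol at 10000 nM in place of 0, and 3 passed higher in place of 5 at 100 nM of triptolide. In pyrazolanthrone at 10000 nM 4 passed higher and 3 lower in place of 1 and 0. In nilotinib at 10000 nM 4 passed higher and 2 lower in place of 1 and 1, and in homoharringtonine at 100 nM 4 and 3 in place of 2 and 1.

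Leaving out a replicate in turn, dose trends passed for 3 to 4 members in homoharringtonine (3 without replicate 2), 0 to 0 in miglitol, 0 to 3 in pyrazolanthrone (0 without replicate 2 or 3) and 1 to 2 in triptolide (1 without replicate 1), and lengths for 0 to 1 in nilotinib at 100 nM (1 without replicate 1) and 0 to 4 in triptolide at 100 nM (4 without replicate 3). The single-gene calls that a left-out replicate ended stand beside their results. Without the libraries under 10 mil, the SMS trend in triptolide (0.41, adjusted p = 0.062) no longer passed. The cause of these changes was not tested.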
